A study of Homo sapiens with 8 samples.

Results

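Genes whose symbol ends in -AS1 are mostly long noncoding RNA genes, named for lying antisense to, or next to, the gene whose symbol comes first. The set described here was chosen by count: an -AS1 gene entered if its raw count was 30 or more in each of the 4 libraries of 22RV1 cells or in each of the 4 libraries of DU145 cells. Of 1030 such genes among the 58828 genes in the tables, 281 met this rule. It was met by 248 genes in 22RV1 and by 187 in DU145, and 154 genes met it in both lines. Because the rule used the level in each line, levels and line differences are given as a description, without a test.

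The libraries came from 22RV1 and DU145, which are human cell lines grown from prostate cancers. Cells of both lines had been transduced by lentivirus with the inducible vector alone or with the same vector carrying PAGE4, selected with puromycin and given doxycycline, which switches the construct on. PAGE4 is a cancer/testis antigen. According to the labels, cells were treated with PBS or with 200 mM H2O2 for 12 h. The study states much lower doses for some of its other experiments, so the dose behind these libraries is uncertain. The design gives 8 conditions (22RV1 vector PBS, 22RV1 vector H2O2, 22RV1 PAGE4 PBS, 22RV1 PAGE4 H2O2 and the same 4 in DU145) with 1 RNA-seq library each.

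No condition has a second library. The H2O2 comparison therefore uses 4 pairs of libraries (vector and PAGE4 cells of each line), and the PAGE4 comparison uses the 4 pairs of vector and PAGE4 libraries within line and treatment. The pairs of a line share that line, and nothing in the labels says that they came from separate cultures, so p-values measure only the spread between these libraries. Total counts ran from 25482984 to 43310401 per library. PAGE4 had 0 or 1 counts in the 4 vector libraries and 1001 to 1489 counts in the 4 PAGE4 libraries. The prostate transcript KLK3 had 142 to 1020 counts in 22RV1 and 0 or 1 in DU145. VIM had 11310 to 12516 counts in DU145 and 267 to 1010 in 22RV1. CD44 and LGALS1, listed as DU145 markers, were not higher in DU145, and TRPM8, listed for 22RV1, had at most 7 counts in any library. Mitochondrial mRNA took 6.71% to 10.5% of counts in the PBS libraries and 2.01% to 5.70% in the H2O2 libraries. Mitochondrial rRNA went the other way in DU145, from 5.94% and 5.25% with PBS to 8.97% and 8.87% with H2O2, and took 3.25% to 4.05% in 22RV1. The part of either in the H2O2 results was not tested.

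Antisense RNA is transcribed from the strand opposite a coding gene. Some antisense genes start beside the coding gene's promoter and run away from it, which is called divergent or head to head, and others run across the coding gene's exons. Such RNAs can act on the gene beside them, act elsewhere in the cell, or be by-products of an open promoter, and most are expressed far below their coding neighbour. A few are well known: OIP5-AS1, also called Cyrano, binds the microRNA miR-7, and LRRC75A-AS1, now named SNHG29, is a host gene of small nucleolar RNAs.

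With GENCODE release 44 on GRCh38, 268 of the 281 genes were annotated as lncRNA, 6 as transcribed pseudogenes and 3 as protein coding. Under their newer symbols, 32 were named as divergent transcripts (-DT). In 135 pairs the exons of antisense and sense gene overlapped and the starts were not within 1000 bases of each other. In 104 pairs the genes were head to head, on opposite strands with starts within 1000 bases, and 53 of these also shared exon bases. In 32 pairs the genes overlapped outside exons, 3 did not overlap, and 7 could not be matched. Head-to-head starts lay a median of 254 bases apart. The sources used here do not state whether reads were counted by strand. Without strand, reads from shared exon bases cannot be told apart between the partners, so values of exon-sharing pairs are uncertain.

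Promoters are shown for 5 of these genes because the results below turn on them: JHDM1D-AS1 (now KDM7A-DT) rose together with its head-to-head partner, NNT-AS1 fell together with its partner, DICER1-AS1 and STX18-AS1 fell while their partners rose, and OIP5-AS1 is among the most abundant members. Each window is 300 bases from RefSeq (GRCh38.p14), 250 before the transcription start and 50 after it, written 5′ to 3′ on the strand of the antisense gene. Capitals mark CCAAT, the box bound by NF-Y, and GGGCGG, the box bound by SP1, on either strand (ATTGG and CCGCCC when read on the other strand). The windows lie at chr7:140177011-140177310 (+), chr5:43603181-43603480 (-), chr14:95157438-95157737 (+), chr4:4541881-4542180 (+) and chr15:41283740-41284039 (+).
JHDM1D-AS1: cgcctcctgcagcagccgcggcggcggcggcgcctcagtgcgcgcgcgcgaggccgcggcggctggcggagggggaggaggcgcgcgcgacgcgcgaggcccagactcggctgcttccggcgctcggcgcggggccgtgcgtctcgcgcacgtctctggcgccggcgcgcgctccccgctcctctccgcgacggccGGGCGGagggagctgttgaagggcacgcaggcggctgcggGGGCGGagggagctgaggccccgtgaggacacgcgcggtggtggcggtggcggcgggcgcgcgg
NNT-AS1: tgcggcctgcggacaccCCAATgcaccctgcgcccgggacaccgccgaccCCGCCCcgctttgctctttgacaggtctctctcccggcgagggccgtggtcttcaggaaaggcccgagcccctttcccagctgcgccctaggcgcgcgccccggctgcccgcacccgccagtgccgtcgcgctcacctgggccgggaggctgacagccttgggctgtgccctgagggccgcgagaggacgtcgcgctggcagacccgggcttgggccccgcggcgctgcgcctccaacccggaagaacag
DICER1-AS1: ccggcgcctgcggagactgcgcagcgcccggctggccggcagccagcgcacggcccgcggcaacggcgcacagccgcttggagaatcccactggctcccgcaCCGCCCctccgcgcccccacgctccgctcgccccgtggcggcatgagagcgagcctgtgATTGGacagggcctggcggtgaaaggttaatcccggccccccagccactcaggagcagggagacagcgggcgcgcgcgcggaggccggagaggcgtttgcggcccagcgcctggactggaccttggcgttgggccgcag
STX18-AS1: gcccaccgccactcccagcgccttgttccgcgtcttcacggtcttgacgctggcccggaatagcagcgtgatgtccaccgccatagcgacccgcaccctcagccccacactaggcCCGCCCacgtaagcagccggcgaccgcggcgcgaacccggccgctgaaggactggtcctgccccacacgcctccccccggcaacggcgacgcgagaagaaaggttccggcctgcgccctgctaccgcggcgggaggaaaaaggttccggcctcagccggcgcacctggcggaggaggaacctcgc
OIP5-AS1: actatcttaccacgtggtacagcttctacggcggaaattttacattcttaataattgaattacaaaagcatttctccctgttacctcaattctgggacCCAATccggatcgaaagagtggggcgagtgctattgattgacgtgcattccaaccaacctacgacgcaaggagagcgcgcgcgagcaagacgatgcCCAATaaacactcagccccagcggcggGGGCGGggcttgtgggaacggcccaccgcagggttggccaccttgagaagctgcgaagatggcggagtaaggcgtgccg

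The windows of JHDM1D-AS1, NNT-AS1, DICER1-AS1 and STX18-AS1 held 59, 34, 38 and 37 CpG dinucleotides, and that of OIP5-AS1 held 23. A window was found for 179 of the 281 genes. Their median number of CpG dinucleotides was 25, against 12 over all 22114 promoters in the table. The SP1 letters stood in 58.7% of members' windows and in 42.96% of all windows. For head-to-head members this share was 72.6%. The 149 windows of sense genes had the SP1 letters in 73.8% and a median of 30 CpG dinucleotides. Neither trait was therefore particular to the antisense genes. CCAAT stood in 39.1% of members' windows and 36.2% of all windows. TGACNNNGC, the core of the antioxidant response element bound by NRF2, stood in 17.3% of members' windows and 13.5% of all, and TGANTCA, bound by AP-1, in 2.79% and 8.05%. These 2 sets of letters can overlap. The ETS letters CCGGAAGT stood in 7.26% and 4.51%, and TATAAA in 4.47% and 12.7%. In the sense genes' windows TGANTCA and TATAAA each stood in 6.04%. None of the 5 printed windows held the antioxidant or AP-1 letters, while the RefSeq window of GABPB1-AS1, which also fell with H2O2, held 1 match to each. Among members called with H2O2 that had a window, the antioxidant letters stood in 4 of 20 that fell and in 0 of 7 that rose. Of 101 pairs in which both genes had a window, 29 had the sense gene's start inside the antisense gene's window.

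Levels are given as CPM, the read count scaled to the library's TMM-normalized size, which compares one gene between libraries but not genes of different length. Members took 0.278% to 0.302% of all counts in the 22RV1 libraries and 0.187% to 0.196% in the DU145 libraries. Among members that met the rule in a line, the median of the mean CPM was 4.51 in 22RV1 and 4.41 in DU145. Only 3 members had a mean of 100 CPM or more in either line, and these 3 held 23.6% of the summed CPM in 22RV1 and 24.1% in DU145.

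The members with the most reads in both lines were LRRC75A-AS1, OIP5-AS1 and FGD5-AS1. LRRC75A-AS1 was at 268, 274, 314 and 341 CPM in 22RV1 (vector PBS, vector H2O2, PAGE4 PBS and PAGE4 H2O2, the order used throughout) and at 159, 259, 181 and 271 CPM in DU145. OIP5-AS1 was at 253, 145, 282 and 193 CPM in 22RV1 and at 228, 132, 214 and 115 CPM in DU145. In both lines OIP5-AS1 was lower in each H2O2 library than in each PBS library. FGD5-AS1 was at 159, 101, 166 and 106 CPM in 22RV1 and at 120, 83.3, 113 and 89.8 CPM in DU145. Among the next by reads in 22RV1 were GAS6-AS1, CCDC144NL-AS1, FAM83H-AS1 and THAP9-AS1, and in DU145 THAP9-AS1, VPS9D1-AS1, NOP14-AS1, GABPB1-AS1 and PSMA3-AS1.

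Per kilobase of annotated exon, the highest levels were LRRC75A-AS1 in 22RV1, at 33.4 CPM per kilobase, and VPS9D1-AS1 in DU145, at 39.6 CPM per kilobase. On the same scale the median member stood at 20.3% of its sense gene in 22RV1 (quartiles 8.32% and 74.7%, 239 pairs) and at 19.9% in DU145 (quartiles 6.57% and 76.8%, 181 pairs). The antisense gene was above its sense gene in 46 of these pairs in 22RV1 and in 35 in DU145. EPB41L4A-AS1 was among them, at 5.01 CPM per kilobase in 22RV1 and 5.85 in DU145, which is 1032% and 2093% of EPB41L4A. These ratios depend on the annotated exon lengths, which for genes such as OIP5-AS1 cover many alternative exons.

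The 2 lines carried partly different sets of -AS1 genes. Of the 281 members, 143 were within 2-fold between the lines, 43 were more than 4-fold higher in 22RV1 and 20 more than 4-fold higher in DU145. CCDC144NL-AS1 was at 76.7 to 83.9 CPM in the 4 22RV1 libraries and had 2 to 5 counts in each DU145 library. GAS6-AS1, antisense to the gene of a ligand of the TAM receptors, had 2291 to 3844 counts in 22RV1 and 5 to 21 in DU145, a ratio of 156-fold from the pooled counts (95% interval 120 to 208, for counting error only). ST8SIA6-AS1 had 551 to 1014 counts in 22RV1 and 0 to 6 in DU145. TRHDE-AS1 (80 to 735 counts) and DPP10-AS1 (137 to 232 counts) had 0 counts in every DU145 library. Against a floor of 3 counts over the 4 DU145 libraries they were at least 313-fold and at least 168-fold higher in 22RV1.

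In the other direction, ZFPM2-AS1 had 250 to 367 counts in DU145 and 0 in every 22RV1 library, so that it was at least 596-fold higher in DU145 against the same floor. PRKCQ-AS1 had 308 to 375 counts in DU145 and 1 count over the 4 22RV1 libraries. FAM83A-AS1 (69 to 134 counts), C1RL-AS1 (76 to 171) and DNAH17-AS1 (62 to 150) had at most 6, 3 and 4 counts in any 22RV1 library. These 10 genes were chosen for the largest differences between the lines, so the lack of overlap between their libraries follows from the choice.

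**Figure D1:**
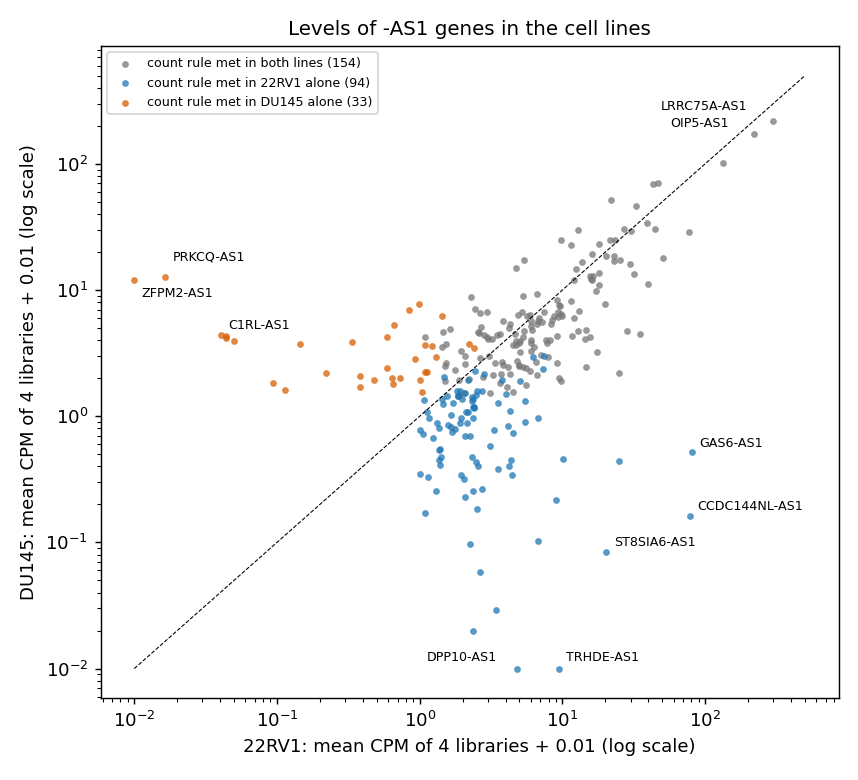
Each point is 1 of the 281 -AS1 genes, at its mean CPM over the 4 libraries of 22RV1 (x axis) and of DU145 (y axis), both with 0.01 added and on log scales. Colours show in which line the count rule was met, and the dashed line marks equal levels. Of the 154 genes that met the rule in both lines, 105 lie within 2-fold of that line and 7 lie over 4-fold from it, while ZFPM2-AS1 and PRKCQ-AS1 sit at the far left and TRHDE-AS1 and DPP10-AS1 at the bottom.

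The genes nearest the limit show what the rule left out. Just inside it were KANSL1-AS1, with a lowest count of 30 in its better line, and SEC24B-AS1 and DLG5-AS1, both at 31. Just outside were RBM12B-AS1, VIM-AS1 and HOXC-AS1, each at 29. VIM-AS1 had 83, 18, 73 and 19 counts in 22RV1 and 40, 43, 38 and 29 in DU145. It was left out because H2O2 libraries of 22RV1 and 1 library of DU145 were under 30. Over all 445 -AS1 genes that could be tested, the median H2O2 change was -0.19 on the log2 scale, against -0.20 for the members.

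The H2O2 comparison asks which of these genes changed in cells under oxidative stress. Across the 4 pairs, 8 members rose and 30 fell with H2O2 at an adjusted p-value under 0.05 (edgeR's quasi-likelihood test with the pair as a block, Benjamini-Hochberg adjustment over 19784 genes). Over all genes tested, 10.2% were called higher and 12.7% lower. Among the 15759 genes that met the same count rule, these shares were 11.9% and 15.3%. Of the members, 2.85% were called higher and 10.7% lower. The share called lower was near that of all genes tested and below that of genes that met the count rule. The share called higher was below both. The part of the members' read counts in these shares was not tested. All 281 members had passed the filter on low counts. In bulk RNA, fewer cells of a kind and less RNA per cell cannot be told apart.

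The members' median change was -0.20 on the log2 scale, with 182 of 281 below 0, beside a median of -0.04 over all genes tested. In single pairs, 185 members were lower with H2O2 in 22RV1 vector cells, 154 in 22RV1 PAGE4 cells, 167 in DU145 vector cells and 176 in DU145 PAGE4 cells. In all 4 pairs 85 members (30.2%) were lower and 35 (12.5%) were higher, beside 23.3% and 21.2% of all genes tested. Total-count scaling moved the median of all genes to 0.05 and that of the members to -0.11, a gap of -0.16 under both scalings. The members' calls became 16 higher and 26 lower. Over all genes the calls went from 2026 higher and 2519 lower to 2825 higher and 1816 lower. The main direction of the calls over all genes thus depended on the scaling. The LINC genes had a median of -0.07 (9 higher and 22 lower of 194), and the other numbered antisense genes, -AS2 to -AS9, had 0 higher and 2 lower of 30 with a median of -0.33. The -IT1 and -OT1 genes had a median of 0.17 (1 higher and 0 lower of 38), and no gene in the tables carried a -DT symbol.

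Without the 22RV1 vector pair, 18 members were called, without the DU145 vector pair 22, and without the DU145 PAGE4 pair 23, against 38 with all pairs. DESeq2's Wald test called 62.

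**Figure D2:**
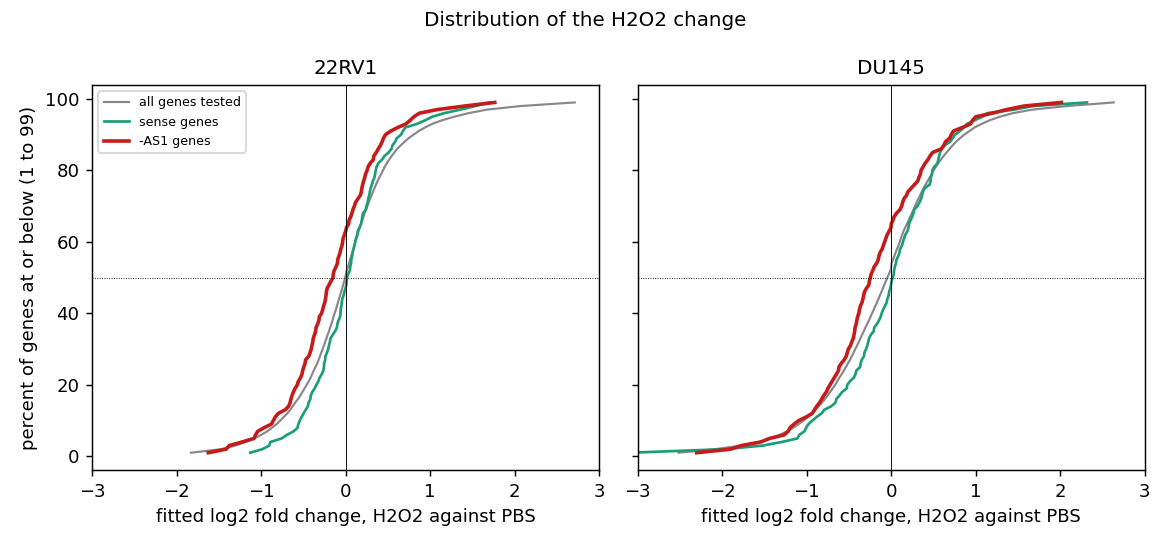
The curves give the percent of genes (y axis, from 1 to 99) at or below each fitted log2 fold change of H2O2 against PBS (x axis), for 22RV1 and DU145, for the -AS1 genes, their sense genes and all genes tested. The curve of the -AS1 genes lies left of the others around its middle, with medians of -0.15 in 22RV1 and -0.25 in DU145.

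The strongest falls by fitted value were in STARD4-AS1, FLG-AS1, DICER1-AS1 and TMPO-AS1. STARD4-AS1, beside the gene of a cholesterol transfer protein, was at 3.54, 0.908, 3.86 and 1.17 CPM in 22RV1. In DU145 it had 20 and 7 counts with PBS and 0 with H2O2 in both constructs (log2 fold change over the 4 pairs -2.32 ± 0.54 SE, adjusted p = 0.0224). FLG-AS1, antisense to the gene of the skin barrier protein filaggrin, was at 8.63, 3.37, 10.7 and 6.23 CPM in 22RV1 and at 3.33, 0.803, 4.44 and 0.798 CPM in DU145 (-1.58 ± 0.30, adjusted p = 0.0111). Every H2O2 library of a line lay below its PBS libraries for both genes. Both were named for the size of their change among called members, so this separation follows in part from the choice.

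DICER1-AS1 lies head to head with DICER1, the nuclease that cuts microRNA precursors. It was at 8.38, 3.40, 8.49 and 4.46 CPM in 22RV1 and at 4.53, 1.12, 4.73 and 1.36 CPM in DU145 (-1.47 ± 0.24, adjusted p = 0.00710). TMPO-AS1, head to head with the gene of the lamina-associated polypeptide 2 proteins, was at 5.92, 1.76, 5.13 and 2.55 CPM in 22RV1 and at 8.81, 2.77, 7.69 and 3.55 CPM in DU145 (-1.38 ± 0.22, adjusted p = 0.00617). The groups did not overlap within a line for either gene, which again follows in part from how these genes were chosen. The share of all genes that separate in this way was not counted. BAIAP2-AS1, ST3GAL4-AS1, ENTPD3-AS1 and SGMS1-AS1 completed the 8 lowest, with log2 fold changes of -1.35, -1.26, -1.23 and -1.20. STARD4-AS1, ST3GAL4-AS1 and ENTPD3-AS1 lost their calls without the 22RV1 vector pair, BAIAP2-AS1 and ST3GAL4-AS1 without the DU145 vector pair, and ENTPD3-AS1 without the DU145 PAGE4 pair.

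Several of the most abundant members fell as well. OIP5-AS1 fell by 0.76 on the log2 scale (± 0.09 SE, adjusted p = 0.00255), and FGD5-AS1 by 0.54 (± 0.09, adjusted p = 0.00761). GABPB1-AS1, head to head with the gene of the beta subunit of the ETS factor GABP, was at 38.3, 20.8, 40.3 and 32.5 CPM in 22RV1 and at 61.4, 33.7, 59.6 and 31.8 CPM in DU145 (-0.74 ± 0.13, adjusted p = 0.00850). NNT-AS1 was at 12.2, 5.45, 12.9 and 8.38 CPM in 22RV1 and at 29.4, 20.5, 31.4 and 19.0 CPM in DU145 (-0.76 ± 0.14, adjusted p = 0.0113). In each of these 4 genes every H2O2 library lay below both PBS libraries of its line, but they are given here because they were called lower. VPS9D1-AS1, PSMA3-AS1 and MCM3AP-AS1 gave -0.07, -0.13 and -0.36 and did not pass the test.

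The 8 members that rose were led by KRTAP5-AS1, at 0.897, 3.32, 0.995 and 2.87 CPM in 22RV1 and with 1, 20, 2 and 8 counts in DU145 (2.05 ± 0.42, adjusted p = 0.0144). MATN1-AS1 was at 1.59, 3.40, 0.846 and 1.87 CPM in 22RV1 and at 2.23, 4.86, 1.33 and 4.63 CPM in DU145 (1.28 ± 0.24, adjusted p = 0.0102). EPB41L4A-AS1, another host gene of a small nucleolar RNA, was at 15.0, 27.3, 16.4 and 27.3 CPM in 22RV1 and at 12.5, 38.7, 12.9 and 36.4 CPM in DU145 (1.18 ± 0.18, adjusted p = 0.00554). In both lines its H2O2 libraries lay above its PBS libraries, as did those of KRTAP5-AS1 and MATN1-AS1. As with the falls, this follows in part from naming called members with the largest changes.

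CEBPB-AS1, beside the gene of a transcription factor of inflammatory responses, rose by 1.13 (± 0.24, adjusted p = 0.0165). JHDM1D-AS1, beside the histone demethylase gene KDM7A, was at 5.02, 9.68, 4.48 and 9.09 CPM in 22RV1 and at 1.83, 4.26, 2.33 and 3.87 CPM in DU145 (0.98 ± 0.19, adjusted p = 0.0111). PITRM1-AS1, NUTM2B-AS1 and FAM83H-AS1 rose by 1.04, 0.49 and 0.36. NUTM2B-AS1 has a close relative, NUTM2A-AS1, so its counts are uncertain. PITRM1-AS1 and FAM83H-AS1 lost their calls whichever pair was left out, and CEBPB-AS1 and NUTM2B-AS1 did when any of 3 pairs was. KRTAP5-AS1 lost its call without the 22RV1 vector pair.

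**Figure D3:**
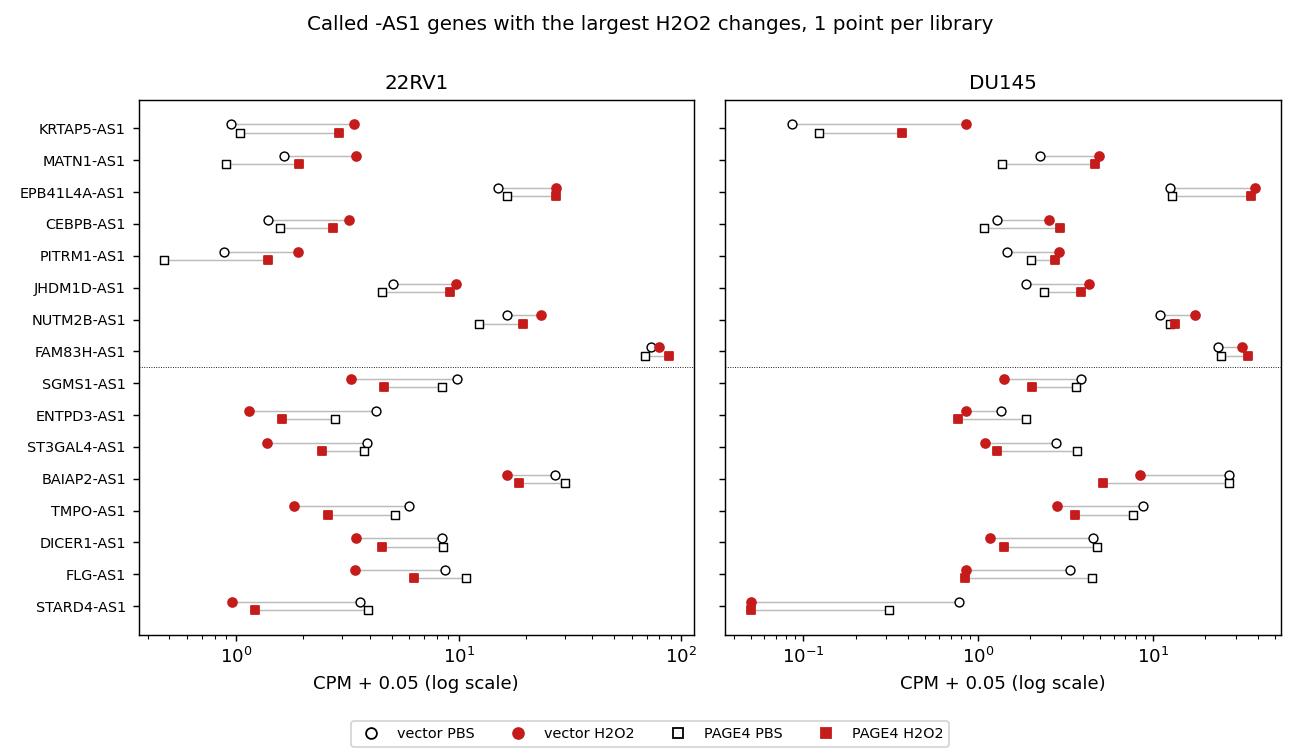
Rows are the 8 members called higher (above the dotted line) and the 8 called members with the lowest log2 fold changes, and the x axes give CPM plus 0.05 on a log scale in 22RV1 and in DU145. Each point is 1 library (circles vector, squares PAGE4, white PBS, red H2O2), and grey lines join the libraries of a pair. Red points lie to the right of white in the upper block and to the left in the lower block in both lines. The rows were chosen by call and by change, so this follows in part from the choice.

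By line, 15 members rose and 38 fell in 22RV1, where 15.2% of all genes were called higher and 16.9% lower. In DU145, 23 rose and 53 fell, where 19.2% of all genes were called higher and 22.8% lower. The members' median was -0.15 in 22RV1 and -0.25 in DU145, beside -0.01 and -0.05 over all genes tested. The calls held in both lines for 5 members that rose (MATN1-AS1, EPB41L4A-AS1, JHDM1D-AS1, KRTAP5-AS1 and CEBPB-AS1) and for 21 that fell. These are 1.78% and 7.47% of the members, beside 8.07% of all genes tested called higher in both lines and 10% called lower in both. With total-count scaling the members' calls in 22RV1 were 19 higher and 30 lower, and calls over all genes in 22RV1 were not counted under that scaling. Without the 22RV1 vector pair, 22 members were called in 22RV1 in place of 53. Without the DU145 vector pair 40, and without the DU145 PAGE4 pair 50, were called in DU145 in place of 76.

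The change with H2O2 differed between the lines for 24 members (14 more positive in 22RV1 and 10 in DU145). This is 8.54% of them, beside 19.5% of all genes tested, and the part of read counts in that gap was not tested. THAP9-AS1, head to head with a gene derived from a DNA transposase, was at 49.96, 47.4, 43.4 and 45.8 CPM in 22RV1 and at 44.5, 100.3, 39.3 and 95.2 CPM in DU145. It rose in DU145 by 1.22 (± 0.10 SE), and its H2O2 libraries lay between its PBS libraries in 22RV1 (difference -1.22 ± 0.14, adjusted p = 2.81e-06). Its partner THAP9 stayed between 4.62 and 5.34 CPM in the DU145 libraries.

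DLGAP1-AS1 went in opposite directions. It was at 0.336, 1.45, 0.274 and 1.24 CPM in 22RV1 and at 8.77, 4.66, 8.80 and 5.31 CPM in DU145 (difference 2.95 ± 0.44, adjusted p = 8.61e-05), and it was called higher in 22RV1 and lower in DU145, as was no other member. BAIAP2-AS1, head to head with the gene of an actin and membrane binding adaptor, was at 27.1, 16.5, 30.1 and 18.6 CPM in 22RV1 and at 27.2, 8.48, 27.4 and 5.15 CPM in DU145. It fell in both lines, by 0.71 in 22RV1 and by 2.03 in DU145 (difference 1.32 ± 0.22, adjusted p = 0.000279). LRRC75A-AS1 rose by 0.64 in DU145 and gave 0.08 in 22RV1 (difference -0.56 ± 0.11, adjusted p = 0.000877). PSMG3-AS1 fell by 1.84 in DU145 and gave -0.47 in 22RV1, with an adjusted p of 0.0608 there (difference 1.37 ± 0.30, adjusted p = 0.00302). Without the DU145 vector pair 8 members differed between the lines, and without the DU145 PAGE4 pair 13, as with DESeq2's Wald test.

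The sense gene was found in the tables for 279 members and could be tested for 274. The sense genes had a median H2O2 change of 0.04 across the 4 pairs, with 42 called higher and 33 lower, where their antisense partners had a median of -0.20. The antisense to sense ratio within a library does not depend on scaling. It was lower with H2O2 in all 4 pairs for 84 of the 274 antisense and sense pairs (30.7%) and higher in all 4 for 34 (12.4%). The members alone gave nearly the same shares (30.2% and 12.5%), and ratios of unrelated genes were not compared. The ratio is therefore no separate result about partners. The median log2 change of the antisense to sense ratio was -0.24 in 22RV1 vector, -0.11 in 22RV1 PAGE4, -0.12 in DU145 vector and -0.21 in DU145 PAGE4 cells.

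Antisense and sense gene moved in the same direction in 148 of 274 pairs in 22RV1 (54.0%) and in 144 in DU145 (52.6%), whatever the size of the change. Pearson's r across genes was 0.26 and 0.17. These points share libraries, and genes are not independent replicates. Among the 132 pairs with overlapping exons, the shares were 59.1% and 61.4%, and among the 104 head-to-head pairs 50% and 43.3%. How reads from shared exon bases were assigned is not known, and 53 of the head-to-head pairs also share such bases. The part of this in the shares was not tested. In 44 head-to-head pairs in DU145 the antisense gene was lower and the sense gene higher, and in 15 it was the reverse. In 22RV1 these were 35 and 17. In DU145, 72 of the 104 antisense genes and 43 of their sense genes were below 0, so these counts alone do not show opposed movement within pairs.

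Of the 104 head-to-head members, 14 were called lower and 2 higher (13.5% and 1.92%, beside 12.7% and 10.2% of all genes tested), so the share called lower was near that of all genes. Their sense genes had 15 called lower and 20 higher (14.4% and 19.2%). The ratio was lower with H2O2 in all 4 pairs in 45 of these 104 and higher in 12. Of the 135 exon-overlapping members, 14 were called lower and 3 higher (10.4% and 2.22%). Their ratio was lower in all 4 pairs in 30 of 132 and higher in 19. Of the 32 members that overlapped outside exons, 2 were called higher and 0 lower (6.25% and 0%, edgeR), both shares below those of all genes tested. Whether the arrangements differ was not tested.

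**Figure D4:**
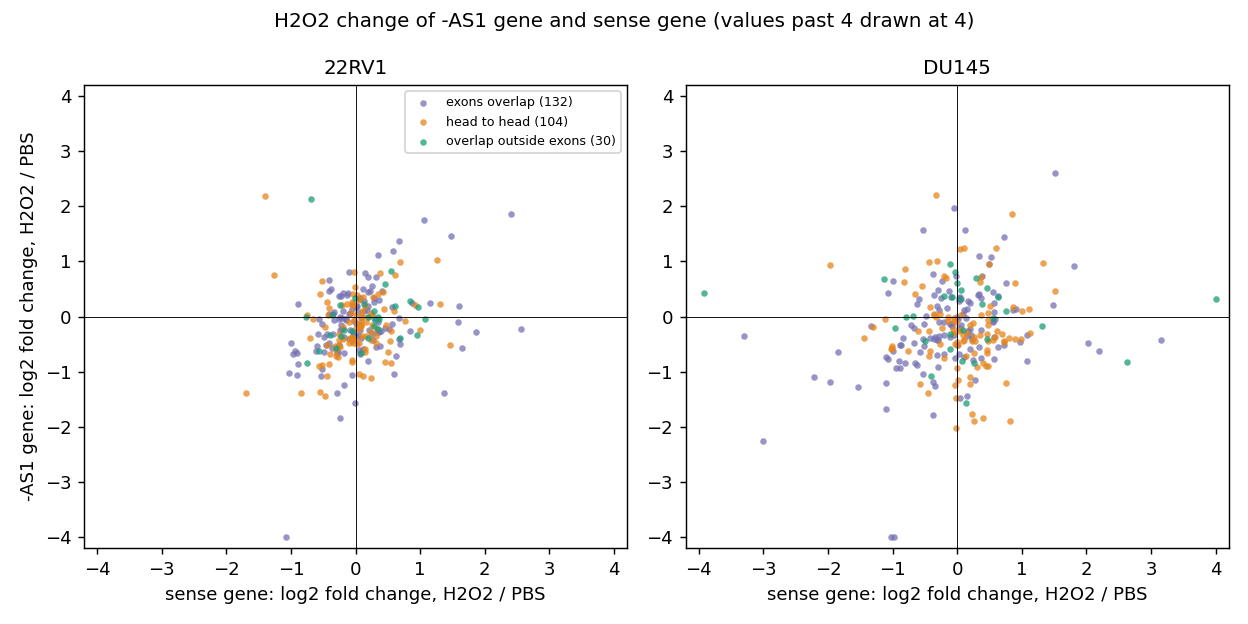
Each point is a pair of an -AS1 gene (y axis) and its sense gene (x axis) at their fitted log2 fold changes of H2O2 against PBS, in 22RV1 and DU145, coloured by arrangement, with values beyond 4 drawn at 4. Points fill every quadrant, and 148 of the 274 tested pairs in 22RV1 and 144 in DU145 share a direction.

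In 9 pairs both genes were called lower and in 2 both were called higher, while in 3 the antisense gene fell and the sense gene rose. The reverse, an antisense gene called higher beside a sense gene called lower, occurred in 0 pairs. A further 18 members fell and 5 rose beside a sense gene that was not called. Few tested pairs thus had an antisense gene called higher, and of the 274 sense genes 15.3% were called higher and 12.0% lower. The 0 is therefore no sign of a one-way pattern, and whether these counts differ from unrelated pairs was not tested. Both genes rose in JHDM1D-AS1 and KDM7A (0.98 and 1.00) and in CEBPB-AS1 and CEBPB (1.13 and 0.93). KDM7A was at 39.1, 60.2, 34.2 and 58.3 CPM in 22RV1 and at 7.06, 19.9, 8.36 and 18.7 CPM in DU145, higher with H2O2 in 4 of 4 pairs, as its partner was.

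Both genes fell in NNT-AS1 and NNT, the mitochondrial enzyme that makes NADPH (-0.76 and -0.66). NNT was at 41.7, 26.0, 51.3 and 37.6 CPM in 22RV1 and at 115, 69.9, 122 and 70.0 CPM in DU145. Both also fell in TMPO-AS1 and TMPO (-1.38 and -0.65), in FLG-AS1 and FLG (-1.58 and -1.80), in STARD4-AS1 and STARD4 (-2.32 and -0.59) and in OIP5-AS1 and OIP5, which loads the centromere histone (-0.76 and -0.82). The other 4 were CCDC18-AS1, RHPN1-AS1, TMEM254-AS1 and DHRS4-AS1.

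The antisense gene fell while its partner rose in DICER1-AS1, STX18-AS1 and HNRNPU-AS1. DICER1 was at 101, 119, 106 and 127 CPM in 22RV1 and at 83.1, 148, 76.2 and 135 CPM in DU145 (0.53 ± 0.13, adjusted p = 0.0260). STX18-AS1 was at 6.52, 2.96, 5.45 and 3.79 CPM in 22RV1 and at 5.26, 2.37, 5.62 and 2.35 CPM in DU145 (-1.01 ± 0.21, adjusted p = 0.0153). STX18, which encodes a SNARE protein of the endoplasmic reticulum, was at 31.9, 49.1, 33.2 and 45.6 CPM in 22RV1 and at 41.5, 70.8, 42.3 and 70.8 CPM in DU145 (0.65 ± 0.10, adjusted p = 0.00538). HNRNPU-AS1 gave -0.88 (± 0.17, adjusted p = 0.0110) and HNRNPU, a nuclear RNA-binding protein gene, 0.44 (± 0.09, adjusted p = 0.0138). HNRNPU-AS1 could not be matched to the annotation, so its position relative to HNRNPU is not given.

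Among pairs whose ratio moved the same way in all 4 pairs, the largest fall was in SDCBP2-AS1, where it dropped by 3.09, 2.36, 2.25 and 2.73 in the 4 pairs (22RV1 vector, 22RV1 PAGE4, DU145 vector, DU145 PAGE4). There the sense gene moved: SDCBP2, the syntenin-2 gene, went from 1.48 to 11.1 CPM in 22RV1 vector and from 0.621 to 2.17 CPM in DU145 vector cells (2.32 ± 0.27, adjusted p = 0.00234), while SDCBP2-AS1 gave -0.35 with an adjusted p of 0.137. Next came STARD4-AS1 and DICER1-AS1. Among those pairs the ratio rose most in A2M-AS1, SPAG5-AS1 and EPB41L4A-AS1. SPAG5, which encodes a spindle protein, fell by 1.28 (± 0.09, adjusted p = 0.000778) while SPAG5-AS1 gave 0.28 with an adjusted p of 0.467, and A2M gave -1.67 with an adjusted p of 0.0524. For EPB41L4A-AS1 it was the antisense gene that rose, and EPB41L4A gave -0.17 with an adjusted p of 0.640.

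The PAGE4 comparison asks what the construct changed. Across the 4 pairs, 2 members were called, both higher, which is 0.712% of members beside 0.136% of all genes tested (27 of 19784). AFAP1-AS1 (chr4:7754077-7778928, + strand, GRCh38) shares exon bases with AFAP1, the gene of an actin filament-associated protein on the other strand. It was at 18.1 CPM with vector and 43.5 with PAGE4 in 22RV1 under PBS, and at 17.5 and 47.5 CPM under H2O2. In DU145 it was at 11.3 and 18.6 CPM under PBS and at 6.43 and 17.5 CPM under H2O2. It was higher with PAGE4 in 4 of 4 pairs (1.22 ± 0.13 SE, adjusted p = 0.00426). AFAP1 itself went from 13.6 to 4.53 CPM and from 9.26 to 4.53 CPM in 22RV1 (-1.34 ± 0.14, adjusted p = 2.25e-06) and gave -0.08 in DU145, and this difference between the lines had an adjusted p of 0.000186.

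TRHDE-AS1 (chr12:72249964-72276954, - strand) shares exon bases with TRHDE and was at 3.77 CPM with vector and 18.3 with PAGE4 in 22RV1 under PBS, and at 2.08 and 13.5 CPM under H2O2. It had 0 counts in all DU145 libraries, so its call rests on the 22RV1 pairs (2.47 ± 0.27, adjusted p = 0.0125). TRHDE, the gene of an enzyme that degrades thyrotropin-releasing hormone, rose with it, from 2.53 to 19.6 CPM under PBS and from 1.19 to 11.002 CPM under H2O2 in 22RV1. Without the 22RV1 PBS pair AFAP1-AS1 lost its call (log2 fold change 1.21) and TRHDE-AS1 did not pass the filter, so 0 members were called. Without the 22RV1 H2O2 pair 1 was called, and with the cell line alone as the block 0 were. Each transduced line is a single cell population here, so the construct and that population cannot be told apart.

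The PAGE4 change differed between the lines for 1 member, PCBP1-AS1, beside 2.49% of all genes tested. PCBP1-AS1 lies across the gene of a poly(C)-binding protein. It was at 21.1 CPM with vector and 29.4 with PAGE4 in 22RV1 under PBS, at 19.98 and 22.3 under H2O2, and in DU145 at 27.1 and 17.6 under PBS and at 29.5 and 25.3 under H2O2. The difference was 0.74 (± 0.19, adjusted p = 0.0467), close to the limit. Of the 4 fits that each left out a pair, PCBP1-AS1 kept its call only in that without the 22RV1 H2O2 pair, where 2 members were called. Without the 22RV1 PBS pair 4 other members were called, and without either DU145 pair 0 were (edgeR). In the full fit 26 members were at an unadjusted p under 0.05. The share of all genes at that limit was not counted, so the 26 have no background beside them.

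**Figure D5:**
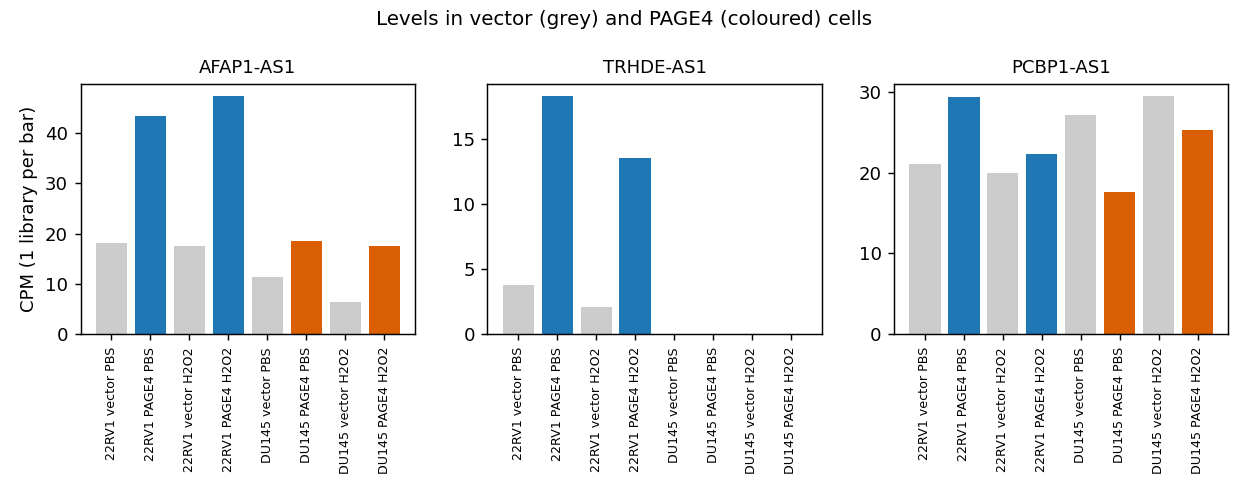
Bars give CPM in 1 library each (y axes) for AFAP1-AS1, TRHDE-AS1 and PCBP1-AS1 in the 8 libraries (x axes), with vector cells in grey and PAGE4 cells in colour. AFAP1-AS1 is higher with PAGE4 in all 4 pairs, TRHDE-AS1 has counts in 22RV1 alone, and PCBP1-AS1 is higher with PAGE4 in 22RV1 and lower in DU145.

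With H2O2, the libraries of PAGE4 and vector cells were also compared by a fold over 1.5 over genes whose normalized counts averaged 10 or more, with 1 library on each side and no test. In 22RV1, 24 members were higher and 27 lower of 271 (8.86% and 9.96%), beside 11.3% and 12.2% of all genes. In DU145, 24 were higher and 21 lower of 259 (9.27% and 8.11%), beside 7.28% and 8.22%. Both lines shared 2 members that were higher, AFAP1-AS1 and PAXBP1-AS1, and 1 that was lower, MBNL1-AS1, while 3 were opposite. PAXBP1-AS1 went from 142 to 215 normalized counts in 22RV1 and from 17.8 to 61.1 in DU145, and MBNL1-AS1 from 89.7 to 55.3 and from 42.0 to 22.1. With PBS the normalized counts of PAXBP1-AS1 were 234 and 225 in 22RV1 and 35.3 and 20.7 in DU145, so that PAGE4 cells were not above vector cells there. Those of MBNL1-AS1 with PBS were 119.5 with vector and 96.8 with PAGE4 in 22RV1, and 67.8 and 100.6 in DU145, where PAGE4 cells were above vector cells.

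Among -AS1 genes often studied in cancer, UBA6-AS1 rose in DU145 by 1.00 (adjusted p = 0.000890) and gave 0.22 in 22RV1, and MAPKAPK5-AS1 rose in DU145 by 0.71 (adjusted p = 0.000585) and gave 0.03 in 22RV1. The difference between the lines passed the test for MAPKAPK5-AS1 (adjusted p = 0.0243) and not for UBA6-AS1 (adjusted p = 0.0702). FOXD2-AS1 and PTPRG-AS1 gave -0.16 and -0.39 across the 4 pairs and were not called. SOX9-AS1 had 71 to 207 counts in 22RV1 and 0 or 1 in DU145.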

How the data were processed

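RNA-seq libraries of 8 conditions were analysed. Deposited were tables of raw gene counts, 1 per cell line, which the authors made with HISAT2 2.1.0 (alignment, GRCh38) and featureCounts 1.6.0 (versions from the submitters' processing notes). The annotation release and strand setting are not given in the sources used here. Members, gene lists and tests were chosen with earlier results of these data known. All genes were fitted with edgeR 4.0.16 in R 4.3.3 (TMM, filterByExpr, quasi-likelihood test, pairs as blocks, adjusted p-value limit 0.05), and DESeq2 1.42.0 was an alternative. The test was checked on simulated data. Displayed ratios used a pseudocount of 0.5, and the floor was 3 counts. Gene positions came from GENCODE release 44 and promoters from RefSeq, with renamed symbols matched by RefSeq synonyms for 47 of 277 matched genes.

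Named genes were the 8 with the most reads in each line, the 5 most different between lines each way, up to 8 called members at each end of the H2O2 change, the 5 smallest adjusted p-values per line and for the line difference, all PAGE4 calls, pairs with the largest ratio changes or with both genes called, and a list of -AS1 genes known from cancer studies. Members named outside this rule, because they made up a short count, were chosen with their values known. Alternatives were other scalings, no filter, another block, other limits and each pair left out. For RNA extraction, the labels give Trizol while the study's methods give a column kit. Some items are not reported here.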

Additional observations from a re-analysis of the deposited data

Results flagged for a closer look

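The H2O2 change differed between 22RV1 and DU145 for 24 members by a test of the difference itself (edgeR, interaction of line and treatment, adjusted over all genes). This is 8.54% of the members, below the 19.5% of all genes tested. Of the 274 sense genes, 44 were more positive in 22RV1 and 41 in DU145 (16.1% and 15.0%). The part of the members' read counts in their lower share was not tested. The 5 with the smallest adjusted p-values, given as log2 change in 22RV1 minus that in DU145, were THAP9-AS1 (-1.22), DLGAP1-AS1 (2.95), BAIAP2-AS1 (1.32), LRRC75A-AS1 (-0.56) and PSMG3-AS1 (1.37). In 6 of the 24 (ADAMTSL4-AS1, PCBP1-AS1, ASB16-AS1, DLGAP1-AS1, NDUFA6-AS1 and GTSE1-AS1) both pairs of one line moved one way and both pairs of the other line the opposite way. The 24 had already passed the test of a line difference, so opposed movement follows in part from that choice. The share of all genes that moved in this way was not counted. Some counts were low: GTSE1-AS1 had 3 to 16 in DU145, and DLGAP1-AS1 had 11 to 56 in 22RV1. PCBP1-AS1 was also the 1 member whose PAGE4 change differed between the lines by the same kind of test, with a log2 difference of 0.74. With 1 library per condition, no group was large enough to look for a single library apart from the rest.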

How the results depend on the processing

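The 38 members called with H2O2 became 62 with DESeq2's Wald test and 18 to 34 when 1 pair was left out, and no called member was called in the opposite direction under any alternative run. In 22RV1, 53 calls became 32 with DESeq2 and 22 to 65 with a pair left out, and in DU145, 76 became 40 to 89 with a pair left out. The 24 line differences became 13 with DESeq2 and 8 to 28 with a pair left out. The 2 PAGE4 calls became 0 with the cell line alone as the block and 0 to 2 with a pair left out. The 1 line difference in the PAGE4 change became 0 with DESeq2, 2 with its size factors, 4 without the filter and 0 to 4 with a pair left out. A limit of 100 counts left 144 members. Over 2-fold, 15 members in 22RV1 and 13 in DU145 differed with PAGE4 under H2O2. Over 1.5-fold, 51 and 45 members differed, and 40 and 19 at a mean normalized count of at least 50. Without exon-sharing pairs, antisense and sense gene shared a direction in 41.6% of pairs in DU145. The cause of these shifts was not tested. Of 160 values of the 16 named H2O2 genes and the 2 PAGE4 genes under alternatives, 135 kept their call and direction and 25 kept the direction alone. Apart from the alternative with the cell line alone as the block, the H2O2 and PAGE4 fits were paired within line and within construct or treatment. The labels give no replicate numbers, so no further block by replicate could be made. The depth sets a floor of 3 counts, and intervals cover counting error only.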
